A study of Mus musculus with 2 samples.

Results

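The cytosolic ribosomal protein genes were taken from the GENCODE M21 annotation of the mouse as all protein-coding genes whose symbol starts with Rps or Rpl and a number, together with Rplp0, Rplp1, Rplp2 and Rpsa and without the kinase genes that start with Rps6k and the symbols that end in -ps. The rule found 86 of 21938 protein-coding genes. They comprise 31 genes of the small subunit, 43 of the large subunit, 3 of the stalk and 8 paralogs, which are duplicated copies such as Rpl10l or Rps27l. The last is Rps19bp1, which encodes a binding partner of Rps19 and no ribosomal protein. The 77 genes of the subunits and the stalk are called ribosomal proteins proper here.

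The chromatin of these genes was measured by DNase-seq, which digests nuclei with the nuclease DNase I and sequences the fragment ends to find open sites. Midbrain of newborn mice of the strain B6NCrl (postnatal, age 0 days, healthy, males and females pooled) formed 1 group of 2 biological replicates, and there was no second condition. Each replicate has its own biosample, both trace to 1 donor entry in the labels, and the protocol names crosslinked nuclei. Nothing says that the animals differed, so the spread between the replicates may be technical.

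The ribosome translates mRNA into protein. Its small subunit reads the message, its large subunit joins amino acids, and the stalk on the large subunit recruits elongation factors. Each protein is needed in about equal amount in every growing cell, and most of the genes are single copies scattered over the chromosomes. In mammals their promoters are known for a start site within a run of pyrimidines (C and T), which leaves a pyrimidine tract at the 5′ end of the mRNA through which mTOR signalling controls translation. In people, mutations in many of these genes cause Diamond-Blackfan anaemia.

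Promoters of 2 members with high and 3 with low signal in these libraries, and of 3 genes central to ribosome biology, are shown so that their start sites can be compared. Rpl13a and Rpsa had the highest mean ranks over both libraries, and Rps4x, Rpl4 and Rpl19 the lowest. Rplp0, Rps19 and Rpl5 encode the core of the stalk, the protein most often mutated in Diamond-Blackfan anaemia, and a protein that binds Mdm2 when ribosome assembly fails. Each line runs from 120 bases before the RefSeq start to base 30 of the transcript (RefSeq, GRCm38.p6, the assembly also called mm10), and capitals mark the longest run of C and T within 30 bases of that start. The intervals are chr7:45128716-45128865, minus strand, for Rpl13a; chr9:120127646-120127795, plus strand, for Rpsa; chrX:102189362-102189511, minus strand, for Rps4x; and chr9:64173267-64173416, plus strand, for Rpl4. The others are chr11:98026804-98026953, plus strand, for Rpl19, chr5:115559347-115559496, plus strand, for Rplp0, chr7:24884472-24884621, plus strand, for Rps19, and chr5:107900408-107900557, plus strand, for Rpl5.
Rpl13a: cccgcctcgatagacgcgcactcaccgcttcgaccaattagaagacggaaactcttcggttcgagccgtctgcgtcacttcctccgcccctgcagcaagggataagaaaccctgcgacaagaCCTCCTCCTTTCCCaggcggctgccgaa
Rpsa: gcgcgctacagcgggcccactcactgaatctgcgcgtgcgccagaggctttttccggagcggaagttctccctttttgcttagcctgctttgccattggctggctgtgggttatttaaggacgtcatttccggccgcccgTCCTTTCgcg
Rps4x: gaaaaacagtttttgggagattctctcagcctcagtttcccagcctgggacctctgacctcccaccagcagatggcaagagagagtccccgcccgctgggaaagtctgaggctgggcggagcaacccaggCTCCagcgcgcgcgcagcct
Rpl4: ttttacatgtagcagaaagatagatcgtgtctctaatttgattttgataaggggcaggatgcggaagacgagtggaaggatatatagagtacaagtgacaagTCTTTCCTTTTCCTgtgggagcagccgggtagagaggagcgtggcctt
Rpl19: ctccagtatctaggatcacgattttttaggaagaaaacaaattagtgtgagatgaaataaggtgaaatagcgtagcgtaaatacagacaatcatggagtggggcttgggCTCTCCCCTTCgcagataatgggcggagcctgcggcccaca
Rplp0: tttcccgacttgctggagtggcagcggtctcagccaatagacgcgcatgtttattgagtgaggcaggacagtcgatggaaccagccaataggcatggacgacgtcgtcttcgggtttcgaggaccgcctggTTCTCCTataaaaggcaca
Rps19: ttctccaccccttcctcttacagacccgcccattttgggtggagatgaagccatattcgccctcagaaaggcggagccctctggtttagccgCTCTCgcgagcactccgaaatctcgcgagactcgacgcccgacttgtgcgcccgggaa
Rpl5: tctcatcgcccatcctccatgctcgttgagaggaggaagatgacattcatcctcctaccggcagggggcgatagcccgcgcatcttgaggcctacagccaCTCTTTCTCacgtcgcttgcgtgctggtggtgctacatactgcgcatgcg

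The runs in capitals are 14 bases long in Rpl13a and Rpl4, 11 in Rpl19, 9 in Rpl5, 7 in Rpsa and Rplp0, 5 in Rps19 and 4 in Rps4x. The printed stretches of Rpl4, Rpl19 and Rps19 share 0 bp with the strongest peak of either library, and that of Rpl13a shares 0 bp in replicate 1 and 30 bp in replicate 2, so the ranks of these genes were measured outside the bases shown or nearly so. The stretches of Rpsa, Rplp0, Rpl5 and Rps4x share 64 to 122 bp with it. The table of RefSeq promoters held 66 of the 86 members. RefSeq and GENCODE place some starts apart, by 221 bp for Rps19, 77 bp for Rpsa and 26 bp for Rpl5, and by at most 16 bp for the other 5 genes shown.

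Nearly every ribosomal protein gene had an open promoter in both libraries. A peak of both libraries lay within 500 bp of an annotated transcription start site (TSS) of 82 of the 86 genes, 95.3% (95% Wilson interval 88.6 to 98.2, counting error only), against 61% of all protein-coding genes. All 77 ribosomal proteins proper were among the 82. The share of all genes varied with the CpG content of the promoter, and the shares at promoters like these are given below. Replicate 1 had a promoter peak at 83 members, 96.5%, against 68.9% of all protein-coding genes, and replicate 2 at 82 members, 95.3%, against 62.6%. Hotspots, the authors' wider intervals of enriched cutting, lay at the promoters of 82 members in both libraries, against 62.1% of all protein-coding genes. The wider call set thus gave the same count as the peaks. At 82 members these hotspots were in the strongest class of the deposited q values in both libraries, against 50% of all protein-coding genes. The 78 mitochondrial ribosomal protein genes, which serve the separate ribosome inside mitochondria, were all open as well. Members have a median of 6 annotated TSSs against 3 for all protein-coding genes. With only the start of the best supported protein-coding transcript the count was again 82, against 56.1%. With only the 5′ end of each gene it was 77, and the background was not computed for that setting.

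The 4 members without a promoter peak in both libraries were all paralogs. Rpl10l, a copy of Rpl10 without introns that is needed for male meiosis, had no promoter peak, and the nearest peak of replicate 1 lay at -4549.5 bp from its TSS (negative is upstream) with a signal of 27. Rpl39l, a copy of Rpl39 used in the testis, also had none, and the nearest peaks lay 22642.5 and 20962.5 bp downstream, past the end of the gene and closest to Atf7ip2. Rpl3l, the form of Rpl3 made in heart and skeletal muscle, had none either. The closest peak to it, at -3369.5 bp, had signals of 122 and 69 and lay nearest to the start of Ndufb10, which encodes a subunit of respiratory complex I. Rps27rt, a copy of Rps27, had a peak in replicate 1 alone, with a signal of 42 at -451.5 bp, which ranked at the 7.45th percentile of promoters in that library.

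The other 4 paralogs were open in both libraries, so copies of ribosomal protein genes were not all open. The share of paralogs with a replicated promoter peak was 50% (Wilson interval 21.5 to 78.5, counting error only), against 61% of all protein-coding genes. That interval includes the share of all genes, so 8 paralogs cannot show whether such copies differ from genes in general. Rpl22l1, a copy of Rpl22 that opposes it in zebrafish blood development, had signals of 138 in replicate 1 and 71 in replicate 2. Rpl36al had 129 and 76, Rps27l, a p53 target in human cells, had 123 and 65, and Rpl7l1, involved in ribosome assembly, had 120 and 66. These values lie inside the range of the ribosomal proteins proper. CpG content, as the ratio of observed to expected CpG from 250 bases before to 50 after the start, was 0.0893 at Rpl3l, 0.633 at Rps27rt, 0.643 at Rpl10l and 0.836 at Rpl39l, against 0.683 to 1.14 at the 4 open paralogs.

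The authors' signal of the strongest promoter peak among the ribosomal proteins proper ran from 103 to 146 in replicate 1, with a median of 132, and from 45 to 92 in replicate 2, with a median of 68. The ranges of the libraries did not overlap. Among all open promoters it ran from 11 to 149 with a median of 115 in replicate 1, and from 2 to 125 with a median of 55 in replicate 2. The signal is a whole number that never exceeded the peak width of 150 bp and was not scaled between libraries, so each promoter was ranked among all protein-coding genes with a promoter peak in the same library. In tissue, a site that is less open in every cell and a site open in fewer cells cannot be told apart.

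**Figure D1:**
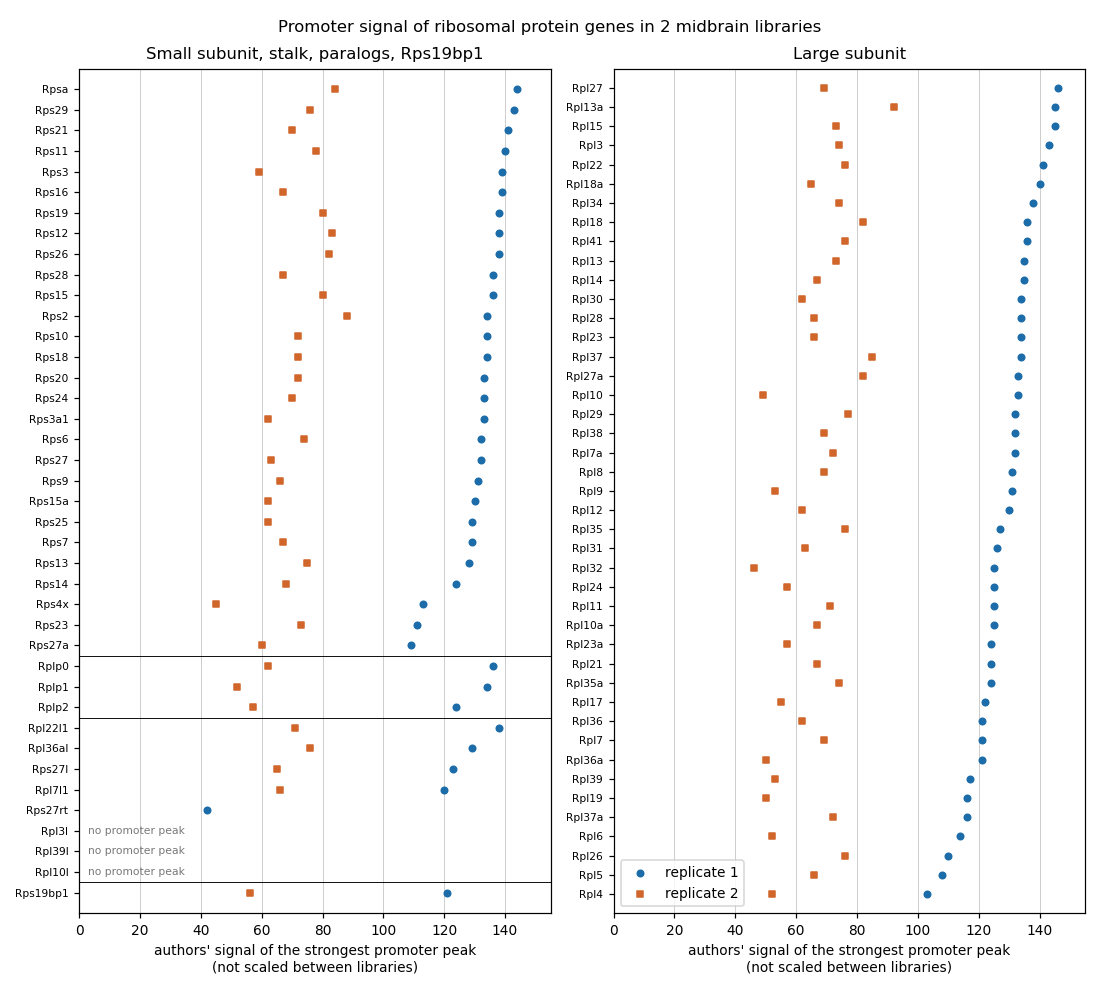
Authors' signal of the strongest promoter peak (horizontal axis, no unit, not scaled between libraries) of 83 of the 86 genes, 1 gene per row, with circles for replicate 1 and squares for replicate 2. Ribosomal proteins proper sit between 103 and 146 in replicate 1 and between 45 and 92 in replicate 2, and Rpl10l, Rpl39l and Rpl3l have no promoter peak.

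The members ranked above most other open promoters. Their median percentile was 78.8 in replicate 1 and 75.1 in replicate 2, against 59.9 and 62.1 for mitochondrial ribosomal protein genes and 50.2 and 50.6 for all protein-coding genes. Of the 82 members with peaks in both libraries, 66 lay above the 50th percentile in both. The same held for 6278 of 13562 protein-coding genes and for 45 of 78 mitochondrial ribosomal protein genes. Below it in both lay 4 members, which was not counted over all genes. At or above the 75th in both lay 31 members, or 37.8%, against 18.6% of all protein-coding genes. Among mitochondrial ribosomal protein genes 13 of 78, or 16.7%, reached the 75th percentile in both, a share near that of all protein-coding genes, although every one of them was open.

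**Figure D2:**
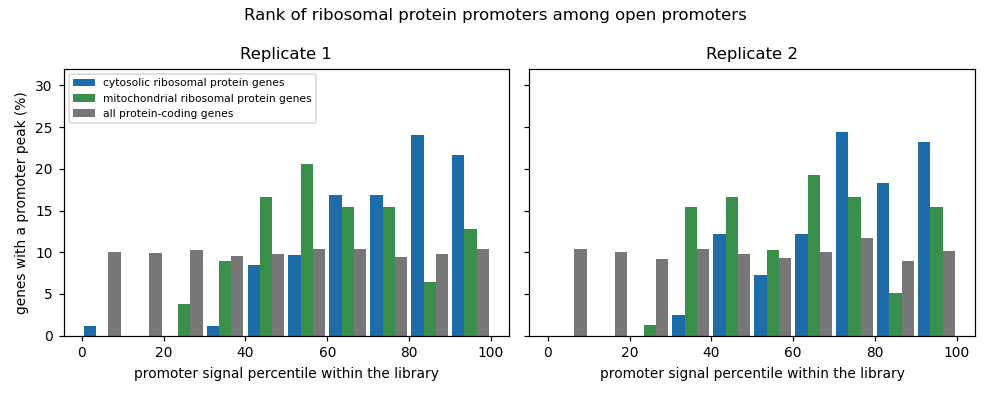
Share of genes with a promoter peak (vertical axis, percent) by percentile of promoter signal within the library (horizontal axis, bins of 10), for cytosolic ribosomal protein genes, mitochondrial ribosomal protein genes and all protein-coding genes. Cytosolic ribosomal protein genes gather at the right, with 21.7% in the top bin of replicate 1 and 23.2% in that of replicate 2, against 10.4% and 10.2% of all protein-coding genes.

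Within the small subunit, signals ran from 109 to 144 in replicate 1 and from 45 to 88 in replicate 2, and the median percentiles were 80.8 and 80.0. Rpsa, which is also known as the laminin receptor precursor, had 144 and 84, at the 98.7th and 98.1st percentiles. Also among the highest by mean percentile were the zinc-binding Rps29 (143 and 76), Rps12, in the beak of the subunit (138 and 83), and Rps26, which lies where the mRNA leaves the ribosome (138 and 82). These 4 genes stood above the 90th percentile in both libraries. Rps19, whose loss stalls maturation of the small subunit, had 138 and 80. Rps6, the protein phosphorylated downstream of mTOR, had 132 and 74. Rps29, Rps12 and Rps26 were named because of their high rank, so no link between role and rank can be read from them. At the low end stood Rps4x, an X-linked gene, with 113 and 45 at the 47.6th and 35.2nd percentiles. Rps27a, which encodes ubiquitin fused to a ribosomal protein, had 109 and 60, the lowest of the small subunit in replicate 1 but not in replicate 2. That peak lay closest to the start of Clhc1, a gene on the other strand 90 bp away. The peak nearest to the start of Rps27a itself had 89 and 43.

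Large-subunit genes spanned 103 to 146 in replicate 1 and 46 to 92 in replicate 2, with median percentiles of 76.9 and 74.1. Rpl13a, known in human cells for silencing inflammatory mRNAs outside the ribosome, had the highest mean percentile of all members, with 145 and 92 at the 99.3rd and 99.8th percentiles. Rpl5 and Rpl11, which together bind and inhibit Mdm2, had 108 and 66, and 125 and 71. Lowest by mean percentile, though not by signal in each library, were Rpl4, Rpl19, Rpl6 and the X-linked Rpl39. Rpl4, which lines the exit tunnel, had 103 and 52, and Rpl19, which bridges the subunits, had 116 and 50. Rpl6 had 114 and 52, and Rpl39, another tunnel protein, had 117 and 53. Rpl4, Rpl6 and Rps4x were among the 4 members below the 50th percentile in both libraries.

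In the stalk, Rplp0, its base, had 136 and 62, Rplp1 had 134 and 52 and Rplp2 had 124 and 57. Their median percentiles were 82.8 in replicate 1 and 54.5 in replicate 2, so the libraries did not rank the stalk alike. A list of 17 genes mutated in Diamond-Blackfan anaemia in people, which is not the full set, had median percentiles of 80.8 and 81.9. Of these genes 8, or 47.1%, reached the 75th percentile in both libraries, beside 37.8% of the members and 18.6% of all protein-coding genes. Rps19bp1 had 121 and 56, near the middle of all promoters in both.

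The libraries placed single members at different ranks. Across the 82 members the 2 signals had a Spearman correlation of 0.54, against 0.71 over 78 mitochondrial ribosomal protein genes and 0.88 over 13562 protein-coding genes, which span a wider range of signal, and the genes of a library share its depth and processing. The percentiles differed by less than 10 at 37 members and by more than 30 at 6, and were larger in replicate 1 at 44 members and in replicate 2 at 38. These counts were not made over all protein-coding genes, so whether members differed more than other genes was not tested. Rpl26, which binds p53 mRNA, had signals of 110 and 76, at the 44.2nd and 90.7th percentiles. Rps23, a protein of the decoding centre, had 111 and 73, at the 45.2nd and 85.8th. The opposite held for Rpl10, which joins the large subunit last, with 133 and 49 at the 80.8th and 40.7th, and for Rplp1 at the 82.8th and 45.5th. Ranks of single genes are therefore less firm than the medians of the set.

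X-linked members had lower median ranks than autosomal ones, although Rpl10 stood at the 80.8th percentile in replicate 1. Rpl10, Rpl36a, Rpl39 and Rps4x had signals of 113 to 133 in replicate 1 and 45 to 53 in replicate 2. Their median percentiles were 56.0 and 41.5, against 78.8 and 78.0 for the 73 autosomal ribosomal proteins proper, and none of the 4 reached the 75th percentile in both libraries. All X-linked protein-coding genes with a promoter peak had medians of 34.2 and 26.7, and 0 of 426 reached the 75th percentile in both, so the 4 genes stood above their chromosome's median in both libraries. Males and females were pooled in both libraries.

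CpG content was higher at member promoters than at promoters in general. The median ratio was 0.853 for the members and 0.556 for all protein-coding genes, and 80 of the 86 members fell in the upper 5 deciles of all genes. Of all protein-coding genes, 83.2% had a replicated promoter peak in the 6th decile, 89.1% in the 7th and 93% in the 8th. The 9th and 10th had 94.9% and 96.4%. Among the members it was 12 of 14, 12 of 12, 14 of 15, 15 of 15 and 24 of 24 in these deciles. The 61% of all genes is thus a low background for most members. Open promoters with more CpG also had higher signals: the median percentile of all protein-coding genes was 47.6 and 43.9 in the 6th decile and 64.1 and 64.1 in the 10th. The members' medians were 76.9 and 79.0 in the 6th decile and 81.8 and 84.0 in the 10th. The gap was smaller in the 8th and 9th deciles of replicate 2. There the members' medians were 69.1 and 74.1, against 62.1 and 64.1 for all protein-coding genes. Of the 82 members with peaks in both libraries, 60, or 73.2%, exceeded the median of their own decile in both, against 43.6% of mitochondrial ribosomal protein genes and 43.7% of all protein-coding genes.

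**Figure D3:**
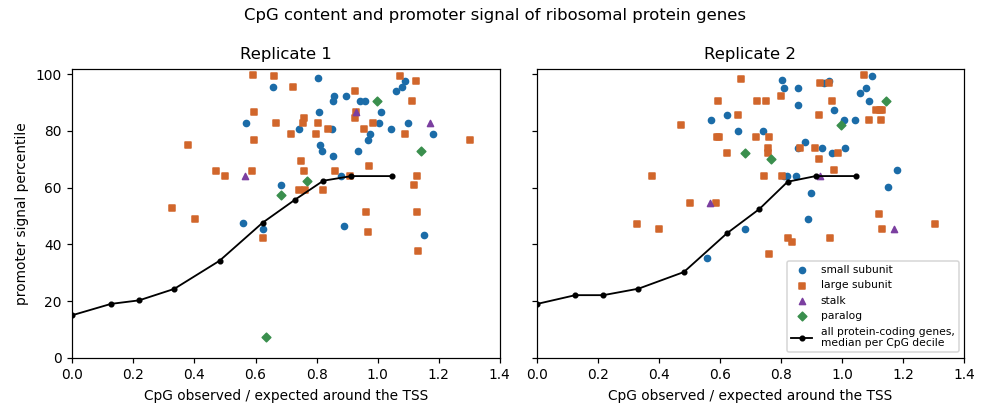
Promoter signal percentile within each library (vertical axis) against CpG content near the TSS as observed over expected (horizontal axis). Each marker is a member of the named group, and the black line joins the medians of all protein-coding genes in CpG deciles; 60 of 82 members exceed the median of their decile in both libraries.

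Peaks sat at the TSS itself. The middle of the strongest peak lay at a median of -43.5 bp in replicate 1 and -38.5 bp in replicate 2 from the reference TSS, the start of the best supported protein-coding transcript, against -41.5 and -42.5 bp for all protein-coding genes. Measured from the 5′ end of the gene, the members' medians were -18.5 and -16 bp. The spread was narrower at the members: the middle 50% lay between -73 and -1 bp in replicate 1, against -113.5 and 28.5 bp for all protein-coding genes. The members thus kept closer to their reference TSS. Within 100 bp of the TSS lay 65 of 83 members, 78.3%, and 62 of 82, 75.6%, against 53.2% and 52.9% of all protein-coding genes. Mitochondrial ribosomal protein genes were at least as tightly placed, at 80.8% and 82.1%. The libraries put the strongest peak at the same position at 32 members, 39%, and within 20 bp, the step of the grid on which peaks were called, at 65, 79.3%, against 28.3% and 65.1% of all protein-coding genes. At the reference TSS, 68.7% of open member promoters in replicate 1 and 61% in replicate 2 held more than 1 peak, against 56.9% and 53.6% for all protein-coding genes. The joined open region was no wider, with a median of 170 bp in both sets.

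**Figure D4:**
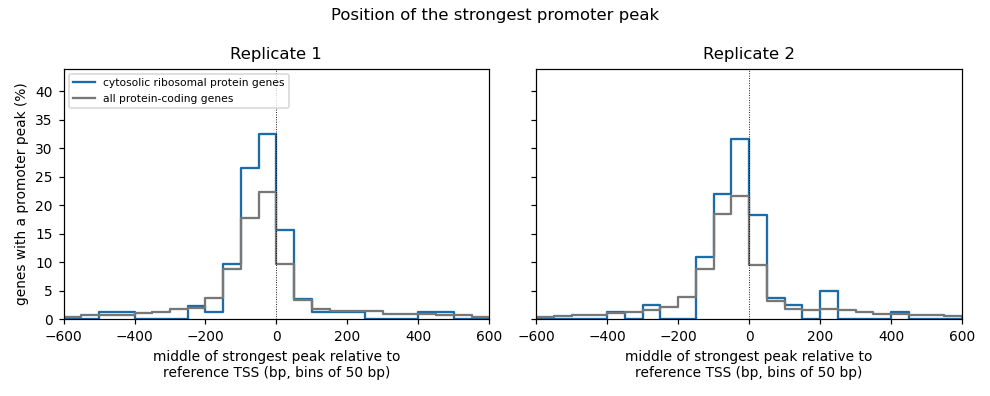
Position of the middle of the strongest promoter peak relative to the reference TSS (horizontal axis, bp, bins of 50 bp, negative is upstream) as a share of genes with a promoter peak (vertical axis, percent). In the bin just upstream of the TSS lie 32.5% and 31.7% of cytosolic ribosomal protein genes in replicates 1 and 2, against 22.4% and 21.7% of all protein-coding genes.

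A few members had their strongest peak away from the reference TSS. Rpl35, which sits near the tunnel exit, had it 413.5 bp downstream in both libraries, at another annotated TSS of the gene. Rps24, whose loss also causes Diamond-Blackfan anaemia, had it at -47.5 bp in replicate 1 but at -3647.5 bp in replicate 2, closest to the start of Polr3a, a subunit of RNA polymerase III, where a transcript of Rps24 is also annotated to start. The peak of replicate 2 nearest to the reference TSS lay at -67.5 bp, with a signal of 62. For Rpl4 the strongest peak, at -424.5 and -364.5 bp, lay closest to the start of Zwilch, a mitotic checkpoint gene on the other strand 271 bp away. Peaks at the start of Rpl4 itself had signals of 96 and 44. For Rps25 the strongest peak, 471.5 and 231.5 bp downstream, lay closest to a start of Trappc4, a vesicle tethering gene, and the peak at its own start had 96 and 44 as well.

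Rpl4 and Rps25 are among 13 members, 15.1%, that face the start of another protein-coding gene within 1000 bp upstream, against 32.1% of mitochondrial ribosomal protein genes and 9% of all protein-coding genes. The closest partner is Ndufa7, another gene of respiratory complex I, 10 bp from Rps28, which had signals of 136 and 67. Rps27 lies 44 bp from Rab13 (132 and 63), Rpl9 53 bp from Lias (131 and 53), and Rpl15 and Rpl18 each 69 bp from Nkiras1 (145 and 73) and Sphk2 (136 and 82). One open site can serve both genes of such a pair, so the signal there cannot be assigned to one of them. The strongest peak was nearest to the member's own TSS at 66 of 82 genes in replicate 1 and 68 in replicate 2. The same count was not made over all protein-coding genes, so no background stands beside it.

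Open regions inside the genes were few. Of the 86 members 12, or 14%, held a replicated region over 500 bp from any annotated TSS, against 24.4% of mitochondrial ribosomal protein genes and 41.4% of all protein-coding genes. The members are also short, with a median gene length of 3328.5 bp against 7899.5 and 17425 bp.

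The bases around the annotated start were compared next, over the 77 ribosomal proteins proper, the 78 mitochondrial genes and the 13391 protein-coding genes with a replicated promoter peak. Pyrimidines were more common at the start of cytosolic ribosomal protein genes. The longest run of C and T within 30 bases of the TSS had a median of 7 bases, against 5 in both other sets, and reached 8 bases or more in 36 genes, 46.8%, against 17.9% of the mitochondrial set and 20.8% of all. Long pyrimidine runs were thus more than 2 times as frequent in the cytosolic set as in either other set. The TSS was a C in 24 genes, 31.2%, against 17.9% and 17.4%. A C followed by 4 pyrimidines, the form of the translational control tract, stood at the TSS of 10 genes, 13%, against 5.13% and 2.24%. The letters TCT with the C at the TSS were found at 6 genes, 7.79%, against 1.28% and 1.23%. Most ribosomal protein genes thus did not have the C and the tract at the annotated base, and these libraries hold no measure of where transcription starts.

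**Figure D5:**
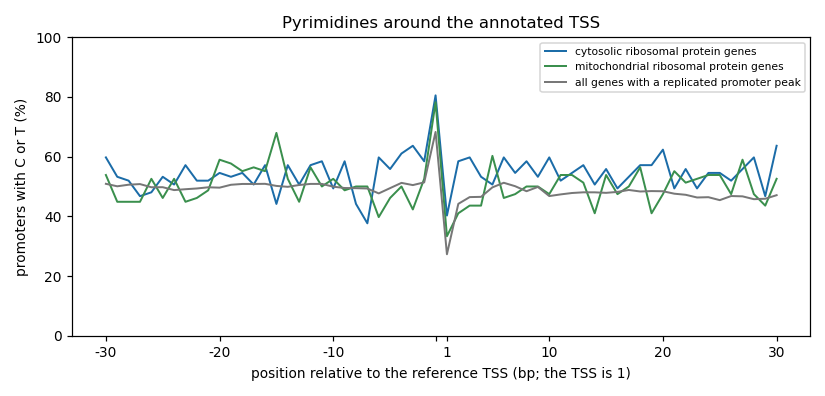
Share of promoters with C or T (vertical axis, percent) at each position from 30 bases before to 30 bases after the reference TSS (horizontal axis, bases, the TSS is 1), for cytosolic ribosomal protein genes, mitochondrial ribosomal protein genes and all genes with a replicated promoter peak. At the TSS and the base after it cytosolic genes lie above the other sets. They have 40.3% and 58.4%, against 33.3% and 41.0% of mitochondrial genes and 27.3% and 44.2% of all genes. Each set is higher at the base before the TSS, with 80.5% of cytosolic, 78.2% of mitochondrial and 68.3% of all genes.

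Short motifs were searched by their exact letters from 250 bases before to 50 bases after the TSS on both strands, apart from the first 2 below, and no motif's letters contain those of another. CTTTC on the sense strand within 10 bp of the TSS was found in 9.09% of the ribosomal proteins proper, against 1.28% of the mitochondrial genes and 2.21% of all open promoters. TATAA on the sense strand 40 to 15 bp before the TSS was found in 3.9%, namely Rpl23a, Rps2 and Rps27, against 0% and 1.6%. CCGGAAG, the letters bound by ETS factors, was found in 27 genes, 35.1%, against 37.2% and 16.6%, so both kinds of ribosomal protein gene held it at a similar share. ACTACAA, part of the ZNF143 motif, was found in 11.7%, against 7.69% and 4.09%, and TGACGTCA, the cyclic AMP response element, in 7.79%, against 2.56% and 3.35%. The E-box CACGTG was found in 13%, against 6.41% and 9.82%. GGGCGG, read by SP and KLF factors, was less common than among all open promoters, at 51.9% against 48.7% and 63.2%, and so was ATTGG, read by NFY, at 29.9% against 34.6% and 38%. AAGATGGC (YY1) at 6.49%, against 14.1% and 4.5%, and GCATGCGC (NRF1) at 5.19%, against 10.3% and 5.13%, were nearer to all promoters than to the mitochondrial set. A match says only that the letters are there.

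The ETS letters lay inside the strongest peak at 19 of the 27 genes in replicate 1 and 18 in replicate 2, 70.4% and 66.7%, against 64.1% and 64.1% of all open promoters with the motif. Median percentiles of the genes with it were 80.8 and 84.0, against 76.9 and 73.2 for those without it. The first 3 of the 27 by symbol show where it sits, chosen after the values were seen, over the same bases of RefSeq GRCm38.p6 as above with CCGGAAG in capitals. They are chr4:136053364-136053513, minus strand, for Rpl11, chr14:18270957-18271106, minus strand, for Rpl15, and chr11:68901446-68901595, plus strand, for Rpl26.
Rpl11: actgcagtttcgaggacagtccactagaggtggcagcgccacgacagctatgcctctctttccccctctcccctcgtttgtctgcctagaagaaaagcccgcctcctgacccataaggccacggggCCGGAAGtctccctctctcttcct
Rpl15: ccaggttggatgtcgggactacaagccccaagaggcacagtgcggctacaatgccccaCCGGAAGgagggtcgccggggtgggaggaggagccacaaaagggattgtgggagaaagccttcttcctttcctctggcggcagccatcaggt
Rpl26: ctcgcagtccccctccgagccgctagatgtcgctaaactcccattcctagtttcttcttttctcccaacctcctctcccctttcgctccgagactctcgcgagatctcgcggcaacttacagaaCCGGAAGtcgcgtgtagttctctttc

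Counted from the RefSeq start, the motif begins at base 7 of the transcript in Rpl11, at base 5 in Rpl26 and at -62 in Rpl15. The GENCODE reference TSS is the same base in Rpl11 but lies elsewhere in the other two genes, and relative to it the motif begins at 19 bp, downstream, in Rpl15 and at -13 bp, upstream, in Rpl26. All 3 also hold a run of C and T near the start, of 17, 17 and 9 bases. The peaks of the 3 genes, with signals of 125, 145 and 110 in replicate 1 and 71, 73 and 76 in replicate 2, overlap these stretches by 71 to 142 of 150 bases.

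Other genes whose mRNAs start with a pyrimidine tract were also open. Of a list of 22 such translation genes, 21 matched a protein-coding gene, and all 21 had a replicated promoter peak, against 61% of all protein-coding genes. Their median percentiles were 78.8 and 84.0, and 11 of 21, or 52.4%, reached the 75th percentile in both libraries, against 18.6% of all protein-coding genes. Fau, which encodes a ribosomal protein fused to a relative of ubiquitin and is missed by the symbol rule, had signals of 138 and 83. Rack1, a signalling scaffold on the small subunit, had 123 and 56. The elongation factor genes Eef1a1 and Eef2 had 137 and 68, and 124 and 72, and the initiation factor gene Eif4b had 143 and 83.

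Replicate 1 had 228203 peaks and replicate 2 had 122593, and read depth is unknown. Markers of the tissue were open where the label would place them only in part. All 5 neuronal genes had a replicated promoter peak, and so did 4 of 8 midbrain genes (En1, En2, Otx2 and Meis2). Of all protein-coding genes 61% had one, so the midbrain genes did not exceed the background. Foxa2 and Th of dopamine neurons lacked a promoter peak in both libraries, while Pax7 and Lmx1a had one in replicate 1 alone. None of 5 genes of other organs and none of 2 blood genes had a replicated one, and of 4 genes of glia and vessels Olig2 did.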

How the data were processed

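Midbrain DNase-seq libraries of 1 group were analysed as 2 replicates. Per the deposited text files, peaks and hotspots (mm10) were called by the authors in each library from the filtered alignment of 1 replicate; the aligner, caller and versions were not given in the sources used here. The deposited peaks carry a signal per peak, whose definition is not given, and the deposited hotspots carry the −log10 of a q value, with 100 as the strongest class. Signal was used only within a library. Read depth is unknown.

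Of the peaks, 215 and 221 off chromosomes 1 to 19, X and Y and 22 and 24 repeated positions were left out. A gene had a promoter peak when a peak overlapped (at least 1 bp) the 500 bp on either side of any GENCODE M21 TSS, and a replicated one when a merged region there held peaks of both libraries. Percentiles are mid-ranks of the strongest promoter peak. Shares carry 95% Wilson intervals or stand beside all protein-coding genes. No p-values were computed. Procedures were tested on simulated data. The members, lists and motifs were chosen with earlier results of these data known. Genes were named by rule: members without a replicated peak, the 6 highest and 6 lowest by mean percentile, the 4 farthest from the TSS, the 4 with the largest difference between libraries, and 10 listed genes; others illustrate counts, and some genes the rule names are not reported here. Python 3.11.15, numpy 2.4.6, pandas 2.3.3, scipy 1.17.1 and pysam 0.24.0 were used. Windows, TSS choice, signal limits, overlap, list length and left-out replicates were varied.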

Additional observations from a re-analysis of the deposited data

How the results depend on the processing

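The count of 82 members with a replicated promoter peak stayed between 77 and 82 under the other windows, TSS choices, signal limits, overlaps and list lengths, with 77 when only the 5′ end of each gene was used (and 77 of 77 without the paralogs and Rps19bp1), and the background share ran from 56.1% to 62.8% where it was computed. Counting 1 library alone, without the other replicate, gave 82 to 83. The medians of the percentile and the offset were compared with their difference between libraries. Summing all promoter peaks in place of taking the strongest lowered the median percentile to 62.8 in replicate 1 and 69.1 in replicate 2, and the cause was not tested. Measuring from the 5′ end of the gene moved the median offset to -18.5 bp and -16 bp. No paired analysis was possible because the labels give a single group. Read depth is unknown, and signals of the libraries cannot be set against each other.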

Other observations

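Pseudogenes of the ribosomal protein genes nearly all lacked a replicated peak. Of 300 genes with a ribosomal protein symbol ending in -ps, 4, or 1.33%, had a replicated peak within 500 bp of the 5′ end: Rpl29-ps2 with signals of 135 and 70, which lies within 1000 bp of the start of a protein-coding gene, Rps19-ps10 with 83 and 41, Rpl31-ps20 with 95 and 12 and Rpl21-ps7 with 65 and 18. Apart from Rpl29-ps2 these signals lie below those of every ribosomal protein proper. None of the 6 annotated as protein-coding had one (95% Wilson interval up to 39.0%). Pseudogenes of other genes were not counted, so whether these shares are unusual for pseudogenes was not tested.

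Of the 13 replicated regions inside members, Rpl22, whose product also binds other RNAs, held 2. Small nucleolar RNA genes, which guide the modification of ribosomal RNA and are cut from introns, lay in 30 members, 58 in all, with 5 in Rpl4 and 4 in Rpl13a. The share of all protein-coding genes that hold them was not counted. Of the 12 members with open regions inside, Rps20 and Rps3a1 also hosted small nucleolar RNAs.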
